A study of Mus musculus with 12 samples.

Results

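The Notch pathway was followed through 10 genes of the mouse brain, the receptors Notch1, Notch2, Notch3 and Notch4, the ligands Dll1, Dll4 and Jag1 and the target genes Hes1, Hes5 and Hey1. They were chosen by gene symbol, with earlier results of these data known, and each symbol matched 1 of the 31208 genes of the deposited table. Nothing is therefore read from how many of them moved, and their p values are given as a description. RNA was measured in 12 C57BL/6 mice of 8 weeks, in 3 groups of 4. Sham mice had no cerebral ischemia. Vehicle mice were given sterile saline into a cerebral ventricle on the day before occlusion of the middle cerebral artery and were sampled at 6 h of ischemia. Lactate mice underwent the same procedure with lactate in saline, which the study's methods name as sodium D-lactate. The sources used here do not state whether sham mice were also injected. The labels give the tissue as brain, the study's text speaks of ischemic brain tissue, and the region dissected is not given in the sources used here.

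Notch receptors sit in the membrane of the receiving cell and are bound by Delta-like and Jagged ligands on a neighbouring cell. Binding opens the receptor to ADAM proteases and then to gamma-secretase, which frees the intracellular domain. That domain enters the nucleus, joins the DNA-binding protein Rbpj and a Mastermind coactivator, and turns on genes of the Hes and Hey families, which encode basic helix-loop-helix repressors. In the adult brain the pathway is known from neural stem cells, astrocytes and the vessel wall, where Dll4 and Notch4 belong to endothelium and Notch3 to mural cells.

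Total counts per mouse ranged from 6815920 to 10677224. Levels are given as CPM, a gene's count scaled to the sum of all counts in its library, and 3 counts, taken as the floor of detection, were worth 0.281 to 0.440 CPM. Vehicle mouse 1 stood apart on the second principal component, at -56 where the other 11 mice lay between -5.5 and 16.2, and its neuronal markers summed to 5442 CPM against at most 4437 CPM elsewhere. In vehicle mouse 2 the 6 choroid plexus markers summed to 1842 CPM, against at most 18.4 CPM in any other mouse. All 8 neuronal, 8 astrocytic, 6 microglial and 6 oligodendrocytic markers had counts in every mouse. Of 8 endothelial markers only Cdh5 was at 0 in any mouse, and of 8 mural markers only Abcc9.

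The sequence upstream of Hes5 is shown because Hes5 is the member whose fitted level in lactate mice lay furthest below that in sham mice. It is the stretch of 250 bases that ends just before the Hes5 start, at chr4:154960673-154960922 on the plus strand of GRCm38.p6, from RefSeq. The capitals mark TGGGAA, the core letters to which Rbpj binds, or their reverse complement TTCCCA, since both strands were searched.

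Hes5 upstream: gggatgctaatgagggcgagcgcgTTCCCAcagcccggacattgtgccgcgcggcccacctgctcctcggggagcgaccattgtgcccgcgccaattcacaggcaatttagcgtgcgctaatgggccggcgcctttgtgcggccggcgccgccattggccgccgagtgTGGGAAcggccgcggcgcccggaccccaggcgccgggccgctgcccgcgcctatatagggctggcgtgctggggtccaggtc

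The letters begin 226 bases before the start on the minus strand and 82 bases before it on the plus strand. Of 32851 such windows of 250 bases in the mouse table, 21.6% held the letters at least once and 2.77% held them 2 or more times. Of the 10 genes, 8 had a window, and the letters were absent from those of the 4 receptors and 3 ligands. A match is a description of the sequence and not a binding site.

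The first question was how the 10 genes lie in each group. Only Notch1, Notch3, Hes1, Hes5 and Hey1 reached the level asked of a gene to be tested, 1 CPM or more in 4 or more of the 8 mice compared, and they did so in all 3 comparisons. Notch2, Notch4, Dll1, Dll4 and Jag1 did so in none. In bulk tissue, fewer cells of a type and less RNA per cell cannot be told apart.

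**Figure D1:**
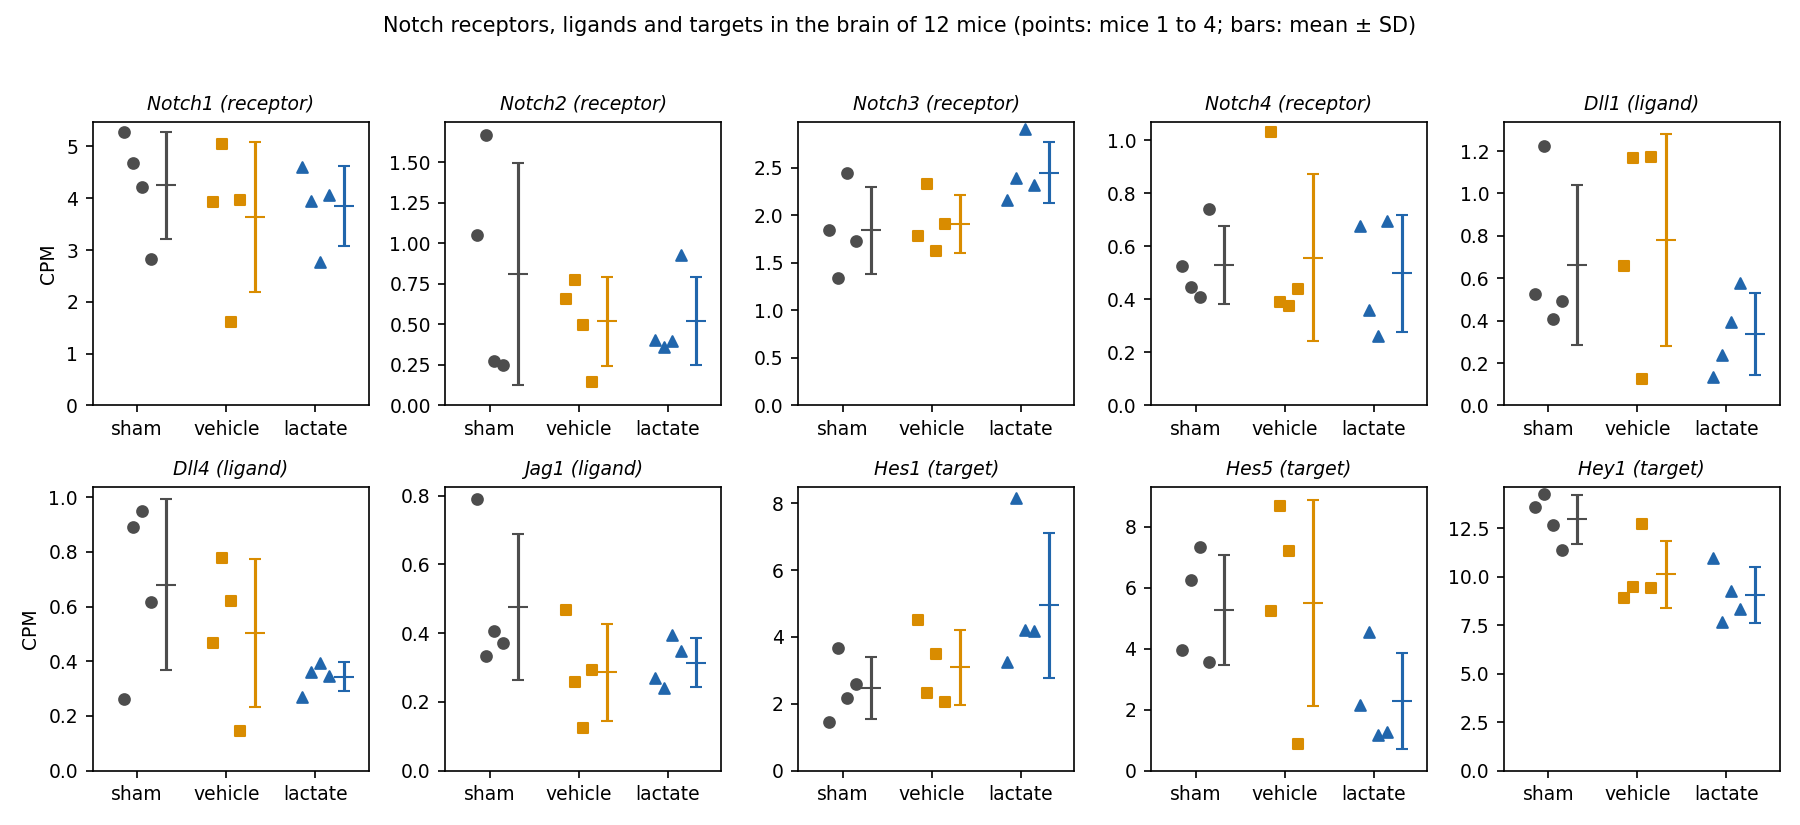
CPM of the 10 genes (vertical axes, from 0, a scale for each gene) in sham, vehicle and lactate mice; points are mice 1 to 4 from left to right in each group, and the bar beside them is the mean with its SD (n = 4). Hey1 is the gene whose sham and lactate points do not overlap, and the 5 genes below the count filter have nearly all points under 1.2 CPM.

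Among the receptors, Notch1 (ENSMUSG00000026923, chr2:26457903-26516663, minus strand) is the form most studied in neural stem cells and endothelium, and its longest coding transcript has 34 exons and 9488 bases. Notch1 was at 5.27, 4.68, 4.21 and 2.84 CPM in sham mice 1 to 4, at 3.93, 5.05, 1.62 and 3.96 CPM in vehicle mice and at 4.60, 3.95, 2.77 and 4.06 CPM in lactate mice. The 3 groups overlapped, and the lowest value belonged to vehicle mouse 3. Against sham, the log2 fold change of Notch1 was -0.18 ± 0.34 (standard error) with vehicle and -0.11 ± 0.26 with lactate, and between lactate and vehicle it was 0.06 ± 0.34, with adjusted p values of 0.86, 0.82 and 0.98 in edgeR. Its direction turned when single mice were left out: without vehicle mouse 3 it was 0.06 in vehicle against sham and -0.19 in lactate against vehicle, without lactate mouse 3 it was 0.01 in lactate against sham, and without lactate mouse 1 it was -0.04 in lactate against vehicle.

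Notch3 (ENSMUSG00000038146, chr17:32120820-32166852, minus strand) is the receptor of pericytes and vascular smooth muscle. Notch3 was at 1.85, 1.34, 2.44 and 1.73 CPM in sham mice, at 1.78, 2.33, 1.62 and 1.91 CPM in vehicle mice and at 2.16, 2.40, 2.90 and 2.32 CPM in lactate mice. Lactate mice had the higher median, 2.36 CPM against 1.79 CPM in sham mice, but sham mouse 3 lay above 3 of the 4 lactate mice. Against sham, the log2 fold change of Notch3 was 0.10 ± 0.31 with vehicle and 0.45 ± 0.28 with lactate, and between lactate and vehicle it was 0.33 ± 0.28, with adjusted p values of 0.93, 0.34 and 0.75 in edgeR. The value for vehicle against sham was -0.02 without sham mouse 2 and -0.01 without vehicle mouse 2. The 8 mural markers, from the cells that carry Notch3, summed to 63.4 to 81.0 CPM in sham mice and to 54.2 to 59.5 CPM in lactate mice. At an adjusted p under 0.05, edgeR called 0 of the 8 for lactate against sham, where 12.3% of all genes were called. In vehicle mice the mural sum ranged from 49.8 to 73.0 CPM. The part of these markers in the Notch3 values was not tested.

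Notch2 (chr3:98013527-98150361, plus strand), a receptor of neural and vascular cells, had between 1 and 15 counts in a mouse. Sham mice had 8, 15, 2 and 2 counts, vehicle mice 7, 6, 4 and 1, and lactate mice 3, 3, 3 and 8. Sham mice 1 and 2 carried 23 of the 27 counts of their group, and 6 of the 12 mice were at or under 3 counts. Summed over 4 mice the level was 0.843 CPM in sham mice (95% exact Poisson interval 0.556 to 1.23, for counting error only), 0.541 CPM in vehicle mice (0.321 to 0.856) and 0.532 CPM in lactate mice (0.310 to 0.852), and the 3 intervals overlapped.

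Notch4 (chr17:34564268-34588503, plus strand), the endothelial receptor, had 4, 4, 3 and 6 counts in sham mice, 11, 3, 3 and 3 in vehicle mice and 5, 3, 2 and 6 in lactate mice. The 11 counts of vehicle mouse 1 stood above every other mouse. The summed level was 0.531 CPM in sham mice (interval 0.309 to 0.850), 0.602 CPM in vehicle mice (0.367 to 0.929) and 0.501 CPM in lactate mice (0.286 to 0.813). The endothelial markers summed to 76.6 to 91.8 CPM in sham mice, 78.6 to 96.7 CPM in vehicle mice and 77.1 to 110.4 CPM in lactate mice, ranges that overlap as those of Notch4 do.

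The 3 ligands had between 1 and 11 counts in a mouse. Dll1 (chr17:15367354-15376872, minus strand), the Delta-like ligand of neural progenitors, had 4, 11, 3 and 4 counts in sham mice, 7, 9, 1 and 8 in vehicle mice and 1, 2, 3 and 5 in lactate mice. Its summed level was 0.687 CPM in sham mice (interval 0.431 to 1.04), 0.752 CPM in vehicle mice (0.487 to 1.11) and 0.344 CPM in lactate mice (0.172 to 0.616). The lactate group had the lowest sum, and its interval overlapped both others.

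Dll4 (chr2:119325784-119335962, plus strand), the ligand of endothelial tip cells, had 2, 8, 7 and 5 counts in sham mice, 5, 6, 5 and 1 in vehicle mice and 2, 3, 3 and 3 in lactate mice. All 4 lactate mice were at or under 3 counts, as was 1 mouse in each of the other groups. The summed level was 0.687 CPM in sham mice (0.431 to 1.04), 0.511 CPM in vehicle mice (0.298 to 0.819) and 0.344 CPM in lactate mice (0.172 to 0.616).

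Jag1 (chr2:137081456-137116644, minus strand), a ligand of endothelium, smooth muscle and the neural stem cell niche, had 6, 3, 3 and 3 counts in sham mice, 5, 2, 1 and 2 in vehicle mice and 2, 2, 3 and 3 in lactate mice. Of the 12 mice, only sham mouse 1 and vehicle mouse 1 had more than 3 counts. When genes were tested with no count filter, the log2 fold change for lactate against sham was -0.97 ± 0.62 for Dll1, -0.98 ± 0.58 for Dll4 and -0.58 ± 0.62 for Jag1, with adjusted p values of 0.35, 0.31 and 0.59 in edgeR. None of the 3 was called, where 9.45% of all genes were with no filter, and for each of them the summed intervals of sham and lactate mice overlapped.

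The target genes had more counts. Hes1 (ENSMUSG00000022528, chr16:30064384-30067796, plus strand) encodes a repressor that holds neural stem cells undifferentiated and is induced by other signals besides Notch. Hes1 was at 1.45, 3.68, 2.17 and 2.59 CPM in sham mice, at 4.50, 2.33, 3.49 and 2.05 CPM in vehicle mice and at 3.25, 8.14, 4.22 and 4.17 CPM in lactate mice. The medians rank as sham (2.38 CPM), vehicle (2.91 CPM) and lactate (4.20 CPM), and neighbours in that order overlapped. Lactate mouse 2 was the highest of the 12 mice, and lactate mouse 1 lay below sham mouse 2.

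Hes5 (ENSMUSG00000048001, chr4:154960923-154962371, plus strand) is regarded as the most direct Notch target of neural stem cells and of parenchymal astrocytes, and its transcript has 3 exons and 1273 bases. Hes5 was at 3.96, 6.24, 7.33 and 3.58 CPM in sham mice, at 5.24, 8.68, 7.22 and 0.880 CPM in vehicle mice and at 2.16, 4.55, 1.19 and 1.28 CPM in lactate mice. Lactate mice 1, 3 and 4 lay below all 4 sham mice, while lactate mouse 2 lay above sham mice 1 and 4. The vehicle group was split, with mouse 4 lowest of all 12 mice, on 6 counts, and mouse 2 highest. The medians rank as lactate (1.72 CPM), sham (5.10 CPM) and vehicle (6.23 CPM).

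Hey1 (ENSMUSG00000040289, chr3:8663359-8667256, minus strand) encodes a hairy-related repressor known from arterial endothelium and from neural precursors. Hey1 was at 13.6, 14.3, 12.6 and 11.3 CPM in sham mice, at 8.90, 9.45, 12.7 and 9.39 CPM in vehicle mice and at 11.0, 7.66, 9.23 and 8.35 CPM in lactate mice. Every lactate mouse lay below every sham mouse, and vehicle mouse 3 lay among the sham mice while the other 3 lay below them. Such separation was common in these data, as 8.74% of 17262 genes lay lower in this way in lactate than in sham mice and 10.4% lay higher. The SD of Hey1 was 9.77% of its mean in sham mice, against 37.7% for Hes1 and 34.2% for Hes5.

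The second question was what ischemia with vehicle did to these genes. At an adjusted p under 0.05, edgeR called 0 of the 5 tested members in vehicle against sham, where 1.47% of 17019 genes were called, and 0 members had an unadjusted p under 0.05, where 13.8% of all genes had one. DESeq2 and limma also called 0, where they called 2.8% and 2.32% of all genes. A looser rule, an unadjusted p under 0.05 with a fold change of at least 1.5, gave 0 members as well, where 9.52% of all genes tested passed it. The log2 fold change was 0.36 ± 0.36 for Hes1, 0.10 ± 0.47 for Hes5 and -0.33 ± 0.19 for Hey1, with adjusted p values of 0.72, 0.95 and 0.48 in edgeR. The median over the 5 tested members was 0.10, beside 0.00307 over all genes tested. Hes1 was at 0.11 without vehicle mouse 1, which stood apart, at 0.51 without vehicle mouse 4 and at 0.64 without sham mouse 2. Without vehicle mouse 2, which carried the choroid plexus markers, Hes5 was at -0.19. Without vehicle mouse 4, its lowest mouse, Hes5 was at 0.45. Hes5 also lay below 0 without sham mouse 1 (-0.02), sham mouse 4 (-0.04) or vehicle mouse 3 (-0.04).

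The third question was how lactate-treated ischemic mice stood against sham mice. In edgeR, 0 of the 5 tested members were called at an adjusted p under 0.05, where 12.3% of 17262 genes were called, 8.76% higher and 3.55% lower. Of these members 3 had an unadjusted p under 0.05, Hes1 higher and Hes5 and Hey1 lower, where 27.1% of all genes had one, 15.6% higher and 11.4% lower. By unadjusted p and fold change, Hes1 passed as higher and Hes5 as lower, where 17.5% of all genes passed, 11.9% higher and 5.65% lower. The log2 fold change was 1.01 ± 0.35 for Hes1, a ratio of 2.01, with an adjusted p of 0.078 in edgeR. Hes5 was at -1.16 ± 0.40, 2.24-fold lower, with an adjusted p of 0.0784. Hey1 was at -0.49 ± 0.17, 1.40-fold lower, with an adjusted p of 0.0835. The median over the 5 tested members was -0.11, beside -0.03 over all genes tested.

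Both Hes genes lay near the threshold, and leaving out single mice or changing the fit moved them across it. Without sham mouse 2, the highest sham mouse for Hes1, its log2 fold change was 1.29 with an adjusted p of 0.0451, and without lactate mouse 2 it was 0.65 with an adjusted p of 0.239. Leaving out that same lactate mouse moved Hes5 to -1.75 with an adjusted p of 0.00952, whereas without sham mouse 3 it was -0.98 with an adjusted p of 0.201. Over all 18 alternatives the adjusted p ran from 0.0205 to 0.239 for Hes1, from 0.00952 to 0.201 for Hes5 and from 0.0545 to 0.177 for Hey1, with no change of direction. The lowest value for Hes1 came from a fit with a replicate block, which also called Hes5 (0.0283), although the numbers were not taken to pair the mice. DESeq2 called 0 of the 5 and limma with quality weights called 1, Hes5, at -1.54 with an adjusted p of 0.021, where the tools called 13.4% and 12.6% of all genes. With no count filter edgeR also called Hes5, at -1.22 with an adjusted p of 0.0473, where 9.45% of 27533 genes were called.

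**Figure D2:**
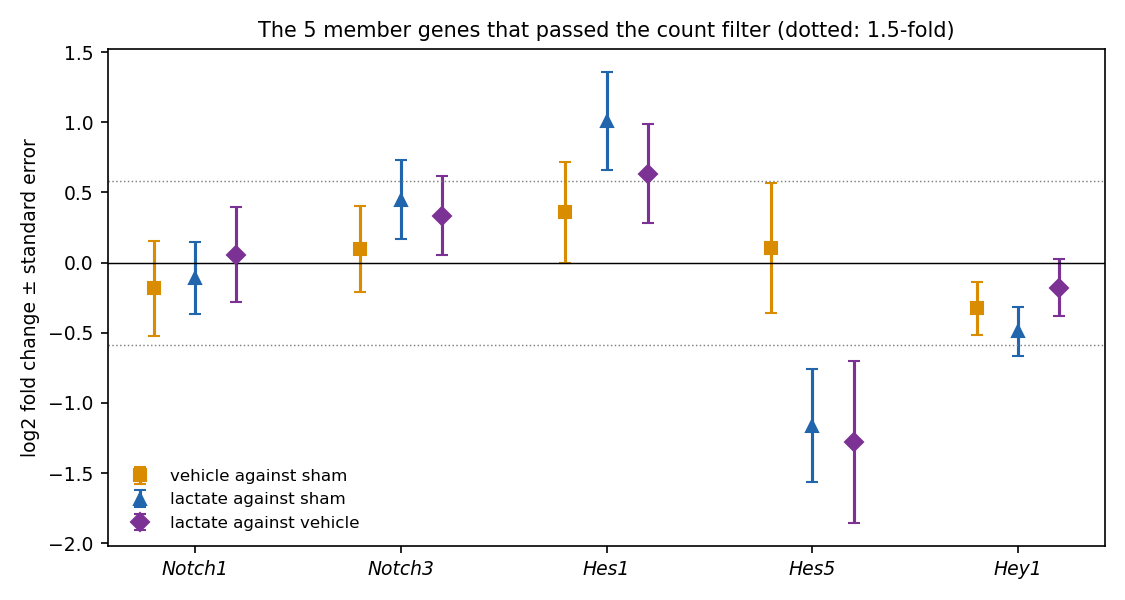
log2 fold change with its standard error (vertical axis) of the 5 members that were tested, in 3 comparisons marked by shape and colour; dotted lines mark 1.5-fold. Hes1 (1.01) and Hes5 (-1.16) lie on opposite sides of 0 for lactate against sham, and Notch1 and Notch3 lie within 0.5 of 0 in all 3 comparisons.

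Hes1 and Hes5 were also set side by side in each mouse. Lactate mouse 2 was the highest of its group for both, at 8.14 CPM of Hes1 and 4.55 CPM of Hes5, and vehicle mouse 4 was the lowest of its group for both, at 2.05 and 0.880 CPM. The other 3 lactate mice had 3.25 to 4.22 CPM of Hes1, each above at least 3 of the 4 sham mice, and 1.19 to 2.16 CPM of Hes5, below all 4 sham mice. Among vehicle mice the one with the most Hes5, mouse 2 at 8.68 CPM, had 2.33 CPM of Hes1. Levels are set against the library total and not against transcript length, so that they compare mice and not the genes with each other.

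**Figure D3:**
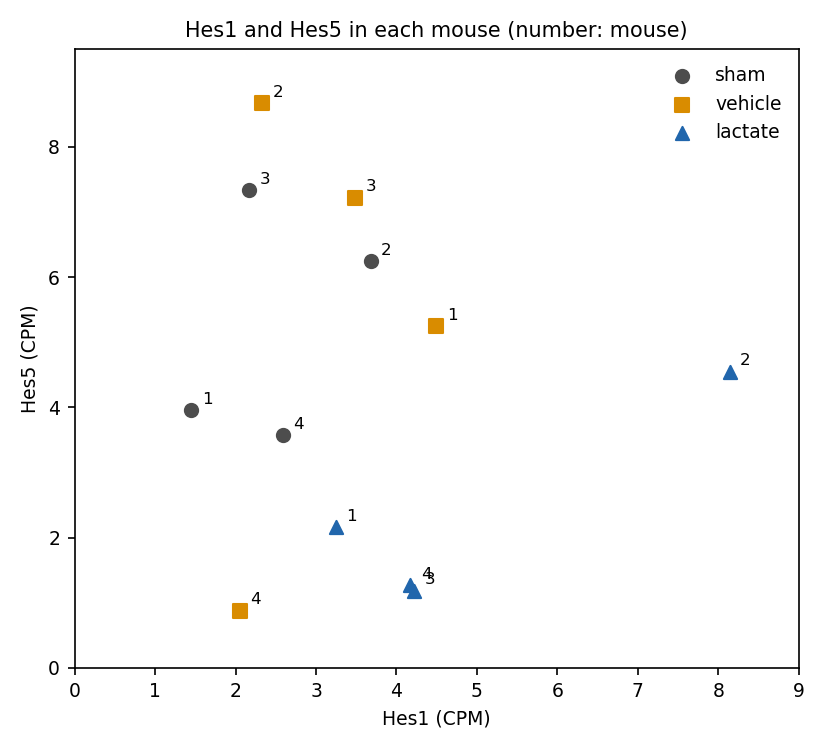
Hes1 (horizontal axis, CPM) against Hes5 (vertical axis, CPM) in each of the 12 mice, with shape and colour for the group and the mouse number beside each point. Lactate mice 1, 3 and 4 lie low, at 1.19 to 2.16 CPM of Hes5, lactate mouse 2 lies furthest to the right at 8.14 and 4.55 CPM, and vehicle mouse 4 lies apart from its group at 2.05 and 0.880 CPM.

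Astrocyte markers, from the cells in which Hes5 is known, summed to 6283 to 10143 CPM in sham mice, 9717 to 11578 CPM in vehicle mice and 9727 to 11555 CPM in lactate mice. The Hes5 median was 1.72 CPM in lactate mice and 6.23 CPM in vehicle mice. The part of astrocyte markers in the Hes5 values was not tested. The 5 blood markers summed to 560 to 633 CPM in sham mice, 333 to 500 CPM in vehicle mice and 375 to 499 CPM in lactate mice, so that they lay lower in both ischemic groups, as 7 of the 8 Hey1 values did. Endothelial markers, from cells in which Hey1 is known, did not lie lower in this way. They summed to 76.6 to 91.8 CPM in sham mice and 78.6 to 96.7 CPM in vehicle mice. In lactate mice they summed to 77.1 to 110.4 CPM, so that the ranges of the groups overlapped. The part of blood, endothelial and mural markers in the Hey1 values was not tested.

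The fourth question was whether lactate and vehicle differed among ischemic mice. In edgeR, 0 of the 5 tested members were called, where 0.00574% of 17419 genes (1 gene) were called, and DESeq2 and limma also called 0 members, where they called 0.356% and 0.0115% of all genes. At an unadjusted p under 0.05 only Hes5 of the members passed, where 8.84% of all genes did, and it also passed with the fold limit as lower, where 6.23% of all genes passed and 2.47% passed as lower. For Hes5 the log2 fold change was -1.28 ± 0.58, 2.43-fold lower, with an adjusted p of 0.557. Hes1 was at 0.63 ± 0.35 with an adjusted p of 0.63 and Hey1 at -0.18 ± 0.20 with an adjusted p of 0.83. Over the 18 alternatives the adjusted p of Hes5 ran from 0.297 to 0.78, and its log2 fold change was -1.30 without vehicle mouse 1, -0.98 without vehicle mouse 2, -1.62 without vehicle mouse 4 and -1.86 without lactate mouse 2. Hes1 was at 0.90 without vehicle mouse 1 and at 0.29 without lactate mouse 2. This comparison shares its lactate mice with that against sham and its vehicle mice with that of vehicle against sham, so the 3 sets of values are not independent.

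The rest of the pathway was read from a list of 57 genes by role. Between 50 and 52 of them were tested in each comparison. In vehicle against sham edgeR called 0 of 51, with 9 at an unadjusted p under 0.05 where 13.8% of all genes had one. DESeq2 called 2 and limma 1, beside 2.8% and 2.32% of all genes. In lactate against vehicle edgeR, DESeq2 and limma each called 0 of 52, with 3 at an unadjusted p under 0.05 in edgeR where 8.84% of all genes had one. In lactate against sham 9 of 50 were called, 1 higher and 8 lower, a share of 18% beside 12.3% of all genes, 8.76% higher and 3.55% lower. Without sham mouse 1 or without sham mouse 3 there were 5, where 8.01% and 7.65% of all genes were called. The median log2 fold change of the 50 was -0.02, beside -0.03 over all genes tested. The list was drawn up with earlier results known, and its share is given as a description.

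**Figure D4:**
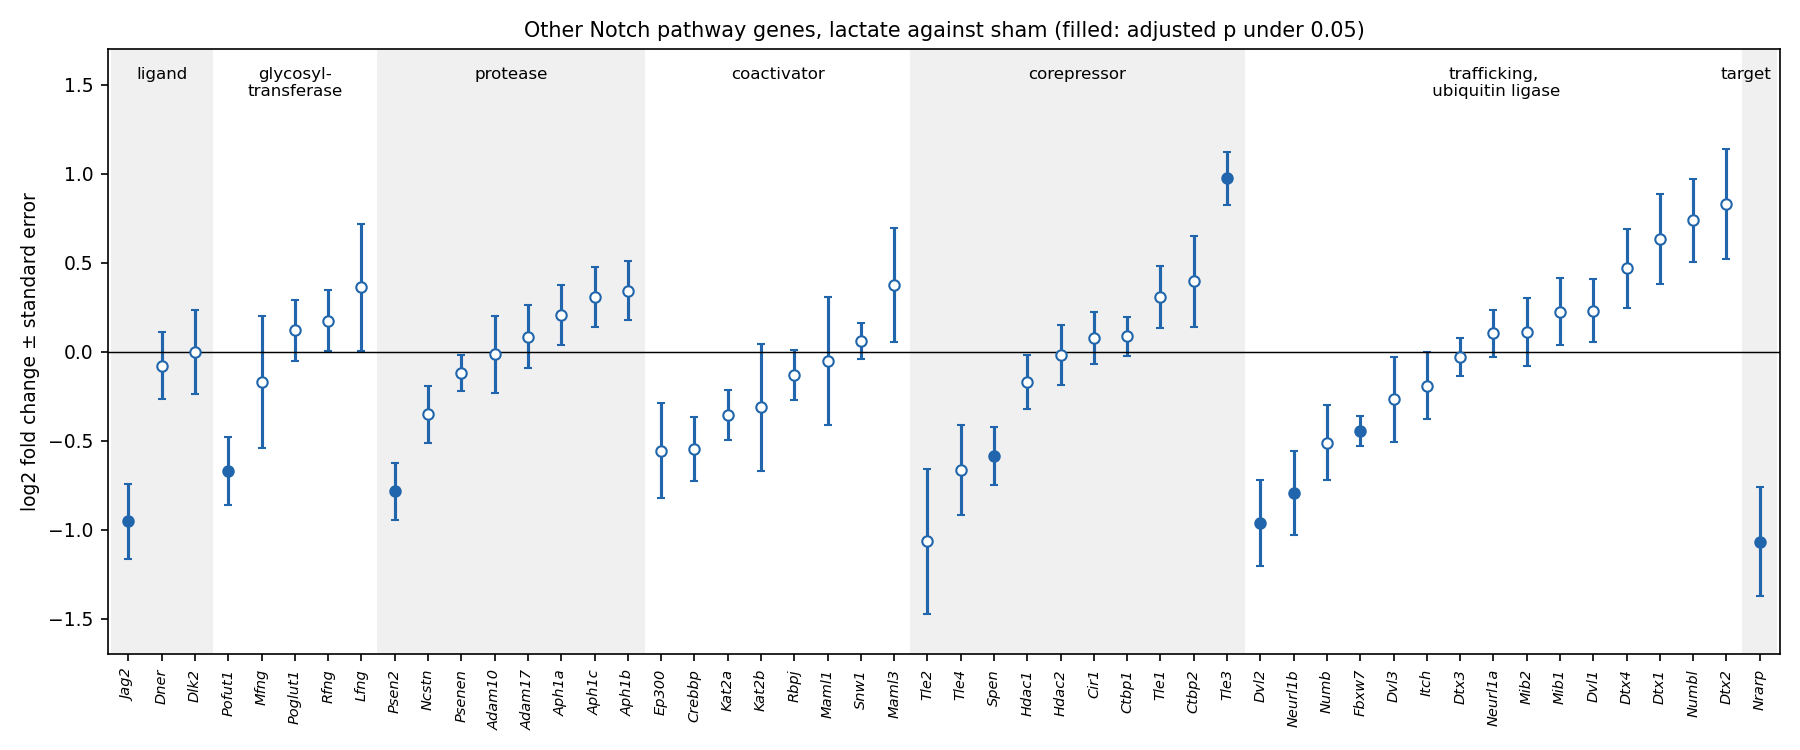
log2 fold change with its standard error (vertical axis) of 50 other Notch pathway genes tested for lactate against sham, ordered by role and then by value; filled points passed an adjusted p under 0.05. Called genes lie below 0 among ligands, glycosyltransferases, proteases, trafficking genes and targets, and on both sides among corepressors.

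Of 5 other ligands, 3 were tested and Jag2, which like Jag1 activates Notch on a neighbouring cell, fell. Jag2 was at 10.7, 9.47, 8.01 and 6.66 CPM in sham mice and at 3.92, 3.95, 4.48 and 5.22 CPM in lactate mice. These groups did not overlap, and 8.74% of all genes lay lower in this way. The log2 fold change of Jag2 for lactate against sham was -0.95 ± 0.21 with an adjusted p of 0.011, and the call held in all 18 alternatives. Vehicle mice were at 8.80, 5.96, 4.61 and 6.02 CPM and overlapped both other groups, with mouse 1 above sham mice 3 and 4 and mouse 3 below lactate mouse 4.

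Of 5 glycosyltransferases, Pofut1, which adds the O-fucose that the receptor's EGF repeats need, fell. Pofut1 was at 7.12 to 8.83 CPM in sham mice, 6.02 to 6.85 CPM in vehicle mice and 4.19 to 5.54 CPM in lactate mice, and no group overlapped another. Of all genes tested, 4.89% lay lower without overlap in vehicle than in sham mice, 8.74% in lactate than in sham mice and 1.83% in lactate than in vehicle mice. For lactate against sham the log2 fold change of Pofut1 was -0.67 ± 0.19 with an adjusted p of 0.0363. The call was lost without sham mouse 2, 3 or 4 or lactate mouse 2, 3 or 4, with adjusted p values of 0.0542 to 0.0968, under a replicate block (0.0597) and among Ensembl genes only (0.0652).

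Of 8 proteases, all tested, Psen2, a catalytic subunit of gamma-secretase, fell. Psen2 was at 21.1, 17.7, 19.8 and 15.9 CPM in sham mice, 14.0, 13.1, 11.8 and 14.8 CPM in vehicle mice and 9.33, 9.46, 12.8 and 10.8 CPM in lactate mice. Both ischemic groups lay wholly below the sham group, as 4.89% of all genes did with vehicle and 8.74% with lactate. Lactate against sham gave Psen2 a log2 fold change of -0.78 ± 0.16 with an adjusted p of 0.00764, and the call held in all 18 alternatives.

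Of 10 corepressors, Tle3 rose and Spen fell. Tle3, a Groucho-family corepressor that Hes proteins recruit, was at 23.7, 21.8, 26.2 and 24.8 CPM in sham mice, at 56.3, 28.9, 33.4 and 50.2 CPM in vehicle mice and at 35.2, 57.6, 47.2 and 45.8 CPM in lactate mice. Its log2 fold change for lactate against sham was 0.98 ± 0.15 with an adjusted p of 0.0014, and the call held in all 18 alternatives. For vehicle against sham Tle3 was at 0.84 ± 0.21 with an adjusted p of 0.0813 in edgeR, and DESeq2 called it with an adjusted p of 0.0117. In edgeR it was called with all 12 mice in 1 fit (0.86, adjusted p of 0.0486) and without vehicle mouse 2 (0.99, adjusted p of 0.033). It was not called in limma (0.62, adjusted p of 0.103). Without vehicle mouse 1, its highest vehicle mouse, edgeR gave 0.67 with an adjusted p of 0.0914. Leaving out any single sham mouse gave adjusted p values of 0.185 to 0.221 in edgeR.

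Spen, the Rbpj-binding corepressor, was at 20.1 to 24.2 CPM in sham mice, 13.4 to 14.6 CPM in vehicle mice and 10.5 to 17.2 CPM in lactate mice. Against sham, Spen had a log2 fold change of -0.58 ± 0.16 with lactate (adjusted p of 0.0331) and of -0.61 ± 0.16 with vehicle (adjusted p of 0.0893). Its call for lactate against sham was lost without sham mouse 1, 3 or 4 or lactate mouse 1 or 3, with adjusted p values of 0.0587 to 0.1, and among Ensembl genes only (0.06), and its fold change, 1.498, was just under a 1.5-fold limit. Spen was called for vehicle against sham in DESeq2 (0.0137) and limma (0.043), and without vehicle mouse 1 edgeR called it at -0.64 with an adjusted p of 0.0487.

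Of 16 trafficking genes and ubiquitin ligases, 15 were tested and Dvl2, Neurl1b and Fbxw7 fell. For each of these genes the vehicle mice overlapped both other groups. Fbxw7, the ligase that marks the intracellular domain for degradation, was at 327 to 378 CPM in sham mice, 232 to 330 CPM in vehicle mice and 239 to 265 CPM in lactate mice. For lactate against sham its log2 fold change was -0.44 ± 0.09 with an adjusted p of 0.00569. At 1.36-fold lower, Fbxw7 did not reach a 1.5-fold limit, and its call held in the other 16 alternatives. Dvl2, a Dishevelled protein better known from Wnt signalling, was at 7.74 to 11.6 CPM in sham mice, 6.46 to 11.4 CPM in vehicle mice and 3.69 to 6.73 CPM in lactate mice. For lactate against sham its log2 fold change was -0.96 ± 0.24 with an adjusted p of 0.0203. The call of Dvl2 was lost without sham mouse 1 or 4 or lactate mouse 1 or 3, with adjusted p values of 0.051 to 0.0555. Neurl1b, a ligase that acts on Notch ligands, was at 3.94 to 5.55 CPM in sham mice, 2.99 to 4.27 CPM in vehicle mice and 2.37 to 3.47 CPM in lactate mice. For lactate against sham its log2 fold change was -0.79 ± 0.24 with an adjusted p of 0.0432. The call of Neurl1b was lost without any 1 of the 4 sham mice or without lactate mouse 1, 3 or 4, with adjusted p values of 0.0513 to 0.111, and also in DESeq2 (0.0583), under a replicate block (0.0562) and among Ensembl genes only (0.0767).

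Of the 4 other targets only Nrarp, a Notch-induced inhibitor of Notch signalling, was tested, and it fell. Nrarp was at 5.14, 7.13, 4.48 and 3.95 CPM in sham mice, 2.90, 3.63, 3.61 and 2.93 CPM in vehicle mice and 2.97, 2.99, 2.51 and 1.28 CPM in lactate mice. Both ischemic groups lay wholly below the sham group, as 4.89% of all genes did with vehicle and 8.74% with lactate. Nrarp had a log2 fold change of -0.63 ± 0.26 for vehicle against sham, with an adjusted p of 0.309 in edgeR. Its log2 fold change for lactate against sham was -1.07 ± 0.31 with an adjusted p of 0.0371. The call was lost without sham mouse 1, 2 or 3 or lactate mouse 3 or 4, with adjusted p values of 0.0615 to 0.103, and among Ensembl genes only (0.0626).

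Of 9 coactivator-complex genes 8 were tested, and edgeR called 0 in any comparison. At an unadjusted p under 0.05 there were 1 for vehicle, 2 for lactate against sham and 0 between the ischemic groups, beside 13.8%, 27.1% and 8.84% of all genes. DESeq2 called 0, 1 and 0 and limma 0 in each. The smallest p among them belonged to Crebbp, an acetyltransferase of the complex, which was at 20.8 to 31.9 CPM in sham mice, 12.3 to 20.1 CPM in vehicle mice and 13.0 to 22.7 CPM in lactate mice. Against sham, Crebbp had a log2 fold change of -0.57 ± 0.20 with vehicle and of -0.54 ± 0.18 with lactate, and adjusted p values of 0.226 and 0.0675. DESeq2 called Crebbp for lactate against sham with an adjusted p of 0.043, and so did edgeR without sham mouse 2 (0.0457), without lactate mouse 3 (0.0398) or with no count filter (0.0454).

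Genes most like each target over the 12 mice were sought by Pearson's r of log2(CPM + 1) among 12904 other Ensembl genes tested in all 3 comparisons, as a description. For Hes1 they were Kcnk1 (r = 0.919), Hsp90aa1 (0.875) and Dcp1a (0.875). In sham, vehicle and lactate mice Kcnk1 had medians of 104.7, 104.6 and 115.7 CPM. Hsp90aa1, an inducible heat shock chaperone, had medians of 1361, 1523 and 1684 CPM in sham, vehicle and lactate mice. For Hes5 they were Plekho1 (0.872), Dclre1a (0.862) and Cx3cl1 (0.854), the last a neuronal chemokine with medians of 94.2, 96.4 and 78.9 CPM. For Hey1 they were Ebag9 (0.913), Mcts2 (0.896) and Cd320 (0.891). Their medians, like that of Hey1, were lowest in lactate mice, which a choice by likeness to Hey1 favours. The points share libraries and groups, so that r contains the differences between groups.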

How the data were processed

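Total RNA of 12 mouse brains was sequenced by the authors as full-length cDNA amplified by PCR on a nanopore instrument. Per the labels and the study's methods, short, low-quality and ribosomal reads were removed, full-length non-chimeric reads were mapped with minimap2 (GRCm38 in the submitters' processing notes), and isoforms were polished with pinfish and compared with known transcripts by gffcompare. Reads carry no molecular identifiers, so intervals and floors cover counting error only, and reads that lack either end were not kept. How reads were counted per gene, and whether by strand, is not given in the sources used here. The deposited values are raw counts per gene with CPM values beside them, which the authors made by dividing each count by the mouse's total. Columns of the authors' own comparisons (p values, fold changes and calls, with edgeR named in the header) were not used. The submitters' notes name DESeq 1.10.1. The table holds 31208 genes, 4 lines that name no gene were dropped, and 0 per-sample columns were left out. Positions and transcript lengths are from GENCODE release M21.

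Counts of the 2 groups compared were tested with edgeR 4.0.16 in R 4.3.3 (quasi-likelihood test, TMM, 1 CPM or more in 4 or more of 8 mice), and p values were adjusted by Benjamini and Hochberg's method across every gene tested. Standard errors were derived from the F statistic and are approximate. Groups came from the labels, each of which names a replicate of 4. The study's text gives n = 4 mice for each group, and p values measure the spread between these samples. No pair of samples of a group agreed within sampling noise, as the lowest chi-square per degree of freedom was 5.28. On simulated counts for lactate against sham (17262 genes, 200 changed), edgeR recovered 170 with 6 false calls, DESeq2 1.42.0 recovered 156 with 11 and limma 3.58.1 recovered 169 with 7. The simulation gave every gene the same dispersion (relative spread between mice) and the changed genes a few set folds. Recovery and false calls in the real counts, where the spread differed between genes, were therefore not measured.

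The 10 genes, the list of 57 other pathway genes and the 8 marker lists were chosen with earlier results of these data known. The text names all 10, every other pathway gene that edgeR called at an adjusted p under 0.05 in any comparison with the settings above, for a role without one the gene with the smallest p, and the 3 genes most correlated with each target. Alternatives were other tools, scalings and filters, all 12 mice in 1 fit, a replicate block, a fold limit, Ensembl genes only and each mouse left out. A pair of genes first listed for the pathway is not reported here. Python 3.11.15 with scipy 1.17.1 and matplotlib 3.10.9 were used for the rest.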

Additional observations from a re-analysis of the deposited data

Results flagged for a closer look

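Dixon's criterion at the 95% level was applied to 60 groups of 4 mice, over the 20 named pathway genes. In 6 of them a mouse was set far from the other 3. The rate of about 1 in 20 by chance holds for independent normal values. Low counts tie and the groups share libraries, so the 6 groups are not read as an excess. Of these, 4 were genes with few counts: Notch2 in lactate mouse 4 (0.928 CPM, 8 counts where the other 3 mice had 3), Notch4 in vehicle mouse 1 (1.03 CPM), Dll1 in sham mouse 2 (1.23 CPM) and Jag1 in sham mouse 1 (0.791 CPM). The others were Hey1 in vehicle mouse 3 (12.7 CPM, against 8.90 to 9.45 CPM in the other vehicle mice) and Dvl2 in sham mouse 3 (7.74 CPM, against 11.2 to 11.6 CPM in the other sham mice). Without vehicle mouse 3, the log2 fold change of Hey1 for vehicle against sham was -0.45 with an adjusted p of 0.429 in edgeR.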

How the results depend on the processing

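For lactate against sham, edgeR called 0 of the 5 tested members, limma with quality weights 1, edgeR with no count filter 1, edgeR with a replicate block 2 and the rule of unadjusted p with 1.5-fold 2, while leaving out 1 mouse gave 0 to 1. Of all genes, 9.45% were called with no filter and 13.2% under the block. The 2 under the block were Hes1 (adjusted p of 0.0205) and Hes5 (0.0283). Correlations of same-numbered mice were 0.139, 0.107, 0.059 and -0.025 in this comparison, with mice 1 and 2 best matched to their own number, and -0.178 to 0.183 over all 3. Not every pair was over 0.1, so the numbers were not taken to pair the mice. For lactate against vehicle the rule of unadjusted p gave 1 member and 3 other pathway genes, against 0 and 0. Other pathway genes called for vehicle against sham were 0 in edgeR, 2 in DESeq2, 1 each in limma, with no count filter (1.24% of all genes) and with all 12 mice in 1 fit (1.61%), 5 by unadjusted p with 1.5-fold (9.52%) and 0 to 1 without 1 mouse (0.67% to 2.54%). For lactate against sham they were 9 in edgeR, 10 each in DESeq2 and limma, 11 with no count filter, 12 by unadjusted p with 1.5-fold, 7 by adjusted p with 1.5-fold, 5 among Ensembl genes only (7.71% of all genes) and 5 to 9 without 1 mouse (7.65% to 12.2%). Single values crossed 0 in 12 cases of 270 for the members, all with log2 fold changes within 0.2 of 0: Hes5 in vehicle against sham was -0.099 in limma and -0.050 under the block. With 1 mouse left out, log2 fold changes in vehicle against sham ran from -0.19 to 0.45 for Hes5, from -0.38 to 0.062 for Notch1 and from -0.015 to 0.26 for Notch3. Those of Notch1 ran from -0.26 to 0.013 in lactate against sham and from -0.19 to 0.25 in lactate against vehicle. Log2 fold changes of the 10 other named genes against sham kept their direction in all 360 cases, with a call lost in 38 and gained in 13. Over all genes DESeq2 called 476 in vehicle against sham and 62 in lactate against vehicle, where edgeR called 250 and 1. Other scalings moved the median of all genes by at most 0.036. The choice of genes moved it further for lactate against sham, by 0.056 with Ensembl genes only and by -0.05 with no count filter. The cause of these differences was not tested. The 5 genes under the count filter had 1 to 15 counts in a mouse, and the size of difference that could be detected at such counts was not tested.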
